A study of Mus musculus with 14 samples.

Results

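De novo active enhancers are described here as stretches of DNA that carried both enhancer marks after 4 days of retinoic acid and neither of them in embryonic stem cells (ESCs). They were selected on measured values, the deposited peak lists: a peak of H3K4me1 in retinoic acid cells (RA) had to overlap an H3K27ac peak of the same cells by at least 1 bp, and no peak of either mark in ESCs. Of 158989 H3K4me1 peaks in RA cells, 20451 (12.9%) met this rule. Peak calls, peak scores and every difference between ESCs and RA cells were therefore used in the choice, and they are given as a description without a test.

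Enhancers are switched on in steps. H3K4me1, a methyl group on histone H3, marks enhancers that are primed as well as those in use, and H3K27ac, an acetyl group on the same histone, is added at active ones. Methylation of cytosine in CpG dinucleotides (5mC) is high over most of the mammalian genome and low at active regulatory DNA, where bound transcription factors are associated with its loss. Retinoic acid binds nuclear receptors and drives ESCs out of pluripotency, into a mixture of fates.

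The cells were R1, a single male mouse ESC line. ESCs were taken 2 days after removal of 2i, the inhibitor pair that holds them in the ground state, and RA cells after 4 days in 1 µM retinoic acid. XEN cells, which model extraembryonic endoderm, were derived from R1 over 9 days in medium with retinoic acid at 0.1 µM and Activin A at 10 ng/mL. DNA released by MNase was precipitated with an antibody against one mark and treated with bisulfite, so 5mC was read in DNA enriched for that mark. Counts also fell on DNA without a peak. The values are CpG counts in bins of 200 bp, split into methylated and unmethylated. There was 1 file per mark in ESCs and in RA cells, called a library below, and 2 per mark in XEN cells. The study repeated its experiments, but whether an ESC or RA file pools repeats was not established, so no replicate spread can be given for these. No label says that the XEN replicates came from separate cultures, so their spread may be technical.

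The ESC and RA libraries held between 32305709 and 58803653 CpG counts and the XEN libraries between 12147115 and 31345707. For XEN cells, sample labels and file names disagree on which mark was precipitated. The labels were followed here, but the values go against them: across the de novo active enhancers, the count levels of the XEN libraries labelled H3K27ac had Spearman correlations of 0.74 and 0.76 with RA H3K4me1 and 0.61 and 0.61 with RA H3K27ac, while those labelled H3K4me1 had 0.54 and 0.56 with RA H3K4me1 and 0.65 and 0.68 with RA H3K27ac (20451 peaks that share libraries, so no p is given). Each direction between marks in XEN cells below would turn round under the file names.

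The median length of the enhancers was 2299 bp (quartiles 1589 and 3235 bp), against 1782 bp for all H3K4me1 peaks of RA cells, and together they covered 55.0 Mb. The overlapping H3K27ac peaks covered a median of 70.7% of each enhancer, and 1719 enhancers were covered from end to end. Their H3K27ac peaks had a median score of 16.6, against 19 for all H3K27ac peaks of RA cells, 20.5 at primed ESC enhancers that were acetylated and 54.1 at enhancers active in both cell states, whereas their H3K4me1 score (median 36.5) was above that of all H3K4me1 peaks (21.9). The nearest ESC peak of either mark lay a median of 5461 bp away, and 7012 enhancers (34.3%) had none within 10 kb. Their share of the H3K4me1 peaks on each of 20 chromosomes ran from 9.21% on chromosome 11 to 15.99% on chromosome 13.

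At the edges of the rule the calls rested on a few bases. One enhancer on chromosome 12, from 109817955 to 109821299, was included for 3 bp of H3K27ac overlap, and 206 enhancers had under 200 bp. A peak on chromosome 3, from 68876943 to 68877942, lay 1 bp from an H3K27ac peak and was not included. On chromosome 13 an enhancer from 100648758 to 100650865 stayed in with an ESC peak 1 bp away, while a peak on chromosome 12, from 25252236 to 25254273, was left out for 1 bp of overlap with one. In all, 2970 enhancers (14.5%) had an ESC peak within 1 kb.

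To compare, 3 other sets of H3K4me1 peaks of RA cells were taken. De novo primed enhancers (44172) had no H3K27ac peak in RA cells and no ESC peak. Primed ESC enhancers that were acetylated (13351) had H3K4me1 but not H3K27ac in ESCs and gained H3K27ac in RA cells. Enhancers active in both states (45058) had both marks before and after. In length the de novo active enhancers stood between these sets, whose medians were 1253 bp, 2709 bp and 2947 bp in the same order.

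The DNA of the de novo active enhancers was largely methylated before they were marked. In ESCs few CpG counts fell on them. Their level, in CpG counts per kb of peak scaled to 1000000 counts in the library, was 0.153 in the H3K4me1 library and 0.235 in the H3K27ac library, against 1.91 and 1.98 at enhancers active in both states. Only 5908 enhancers reached 30 CpG counts in the ESC H3K4me1 library, and their median 5mC was 59.2% (quartiles 51.5% and 66.7%). In the H3K27ac library of ESCs the median was 66.7% over 4249 enhancers. De novo primed enhancers had levels of 0.146 and 0.203 in these libraries and median 5mC of 56.5% and 66.7%, while enhancers active in both states had medians of 31.7% and 23.7%. Of the de novo active enhancers with enough counts, 28 (0.474%) lay under 20% 5mC in ESC H3K4me1 DNA, against 1.57% of de novo primed enhancers and 23.8% of those active in both states.

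They were also methylated when they carried the marks. In RA cells the scaled level was 1.58 for H3K4me1 and 0.817 for H3K27ac, which is 10.3 and 3.47 times the ESC level. Pooled over all 20451 enhancers, 5mC was 60.2% (95% exact binomial interval 60.2% to 60.3%) in H3K4me1 DNA and 56.0% (55.9% to 56.1%) in H3K27ac DNA. Per enhancer, the medians were 62.5% over 19239 and 59.6% over 13809 with at least 30 counts. Under 20% 5mC lay 32 enhancers (0.166%) in the H3K4me1 library and 70 (0.507%) in the H3K27ac library, and 6 of 13792 in both. Over all H3K4me1 peaks of RA cells with enough counts, the shares in the 2 libraries were 2.85% and 20.0%. At de novo primed enhancers they were 0.615% and 0.432%, and at primed ESC enhancers that were acetylated 1.14% and 7.70%. At de novo primed enhancers, where no H3K27ac peak was called, the RA H3K27ac level was 0.293 and pooled 5mC was 57.9%. How much of the RA values came from unmarked DNA was not tested. In bulk libraries a mark present in fewer cells and a weaker mark in every cell cannot be told apart. Intervals cover counting error only, because CpGs of 1 read and copies of 1 molecule are not independent.

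**Figure D1:**
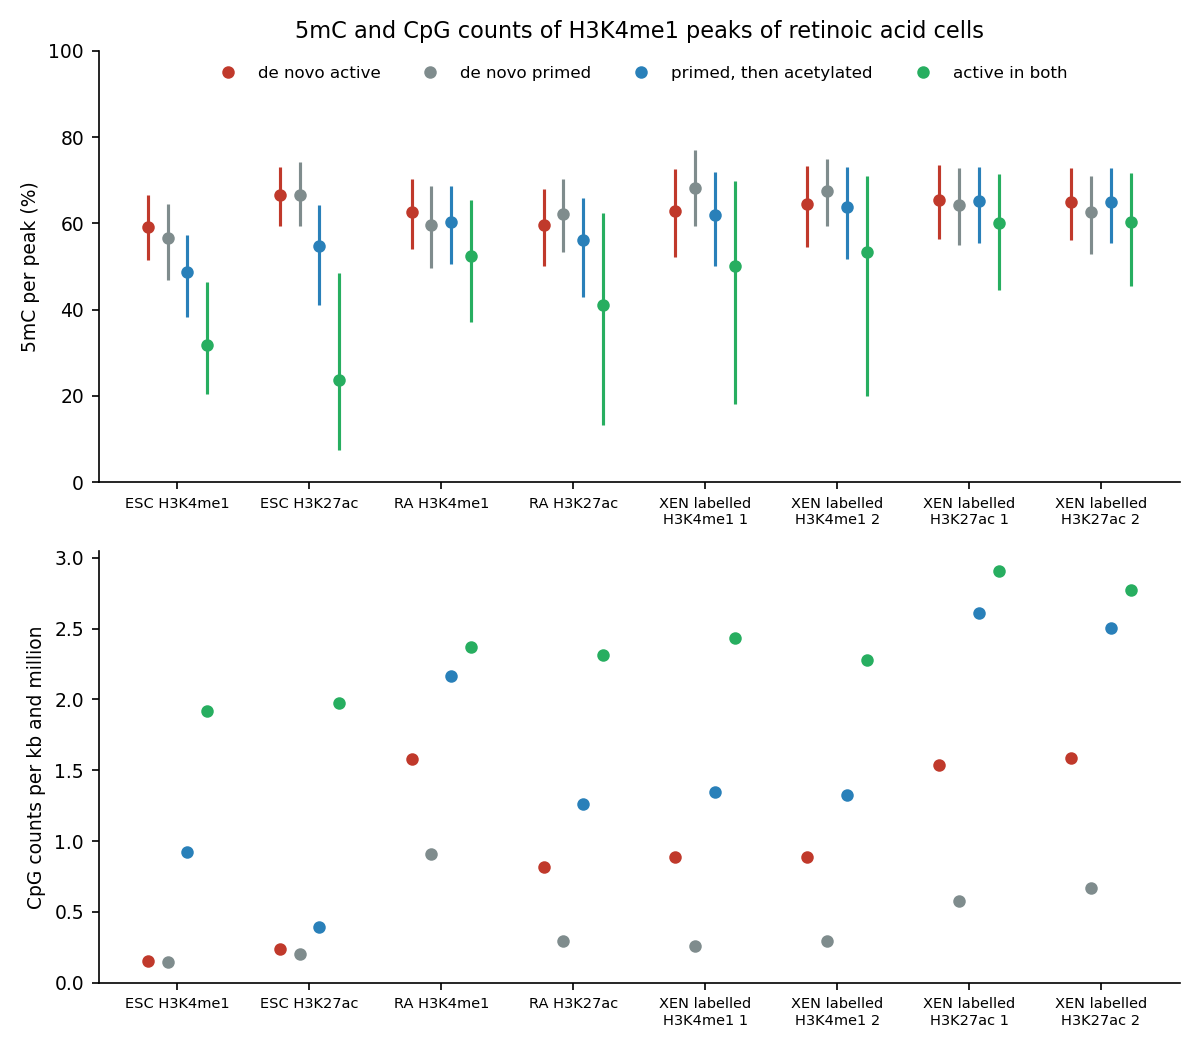
Upper panel, median 5mC (%) per peak with lines from the first to the third quartile, over peaks with at least 30 CpG counts in that library; lower panel, CpG counts per kb of peak scaled to 1000000 counts in the library. Colours are the 4 sets of H3K4me1 peaks of RA cells and the columns are the 8 libraries. De novo active enhancers (red) have medians between 59.2% and 66.7% in all 8 libraries, while enhancers active in both states (green) go from 23.7% to 60.3%.

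Measured enhancer by enhancer, 5mC in H3K4me1 DNA was slightly higher after retinoic acid. Over 5902 enhancers with at least 30 counts in both libraries the median change was 4.82 percentage points (quartiles -3.26 and 13.0). Of these, 603 (10.2%) were more than 20 points higher and 136 (2.30%) more than 20 points lower. The shares were 13.8% and 2.59% at de novo primed enhancers and 38.8% and 0.172% at those active in both states. With at least 100 counts in both libraries they were 5.69% and 1.08% of 369 de novo active enhancers. Pooled over all 20451 the change was smaller, 1.92 points. H3K27ac DNA had the opposite sign, with a median change of -5.01 points over 4202 enhancers, and the pooled change was -7.84 points. Of the 4202, 573 (13.6%) were more than 20 points lower and 90 (2.14%) more than 20 points higher. These shares were 9.76% and 5.16% at de novo primed enhancers and 1.06% and 23.1% at those active in both states. De novo primed enhancers had the same signs, with medians of 6.51 and -3.06 points, and enhancers active in both states differed by a median of 16.7 points in H3K4me1 DNA and 7.30 in H3K27ac DNA. Few counts stood behind the ESC values, with a median of 16 per enhancer in the H3K4me1 library, and ESC reads here come from DNA in which no peak was called.

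Single enhancers moved far from this median. Among the 2287 with at least 100 counts in both RA libraries and 30 in ESC H3K4me1, the largest fall was at a 3280-bp enhancer on chromosome 18, from 75.0% in ESCs (48 counts, interval 60.4% to 86.4%) to 32.9% in RA cells (359 counts, 28.0% to 38.0%) in H3K4me1 DNA, with 23.7% in RA H3K27ac DNA. On chromosome 12, from 77192438 to 77195605, H3K4me1 DNA went from 83.9% (56 counts) to 48.0% (431 counts), and H3K27ac DNA in RA cells was at 26.9% (323 counts). An enhancer on chromosome X, from 96736388 to 96740608, went from 70.0% (30 counts) to 34.2% (339 counts). These enhancers were picked for the size of the change, and their ESC values rest on few counts, so lower values in other libraries are no support for it.

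Among the same 2287, the largest rise was on chromosome 1, from 20998286 to 21000760, where H3K4me1 DNA went from 36.2% (58 counts, 24.0% to 49.9%) to 78.4% (134 counts, 70.4% to 85.0%). Its H3K27ac DNA in RA cells was at 73.1%, and the 4 XEN libraries lay between 73.9% and 77.8%, though it too was picked on a value from few ESC counts. A second on chromosome 1, from 166975157 to 166978984, went from 34.7% (49 counts) to 73.7% (243 counts), with 72.3% in H3K27ac DNA. The third, on chromosome X from 165230779 to 165233213, differed from both. It went from 10.0% (120 counts) to 50.2% (227 counts) in H3K4me1 DNA but stood at 8.76% (194 counts) in H3K27ac DNA of the same cells.

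**Figure D2:**
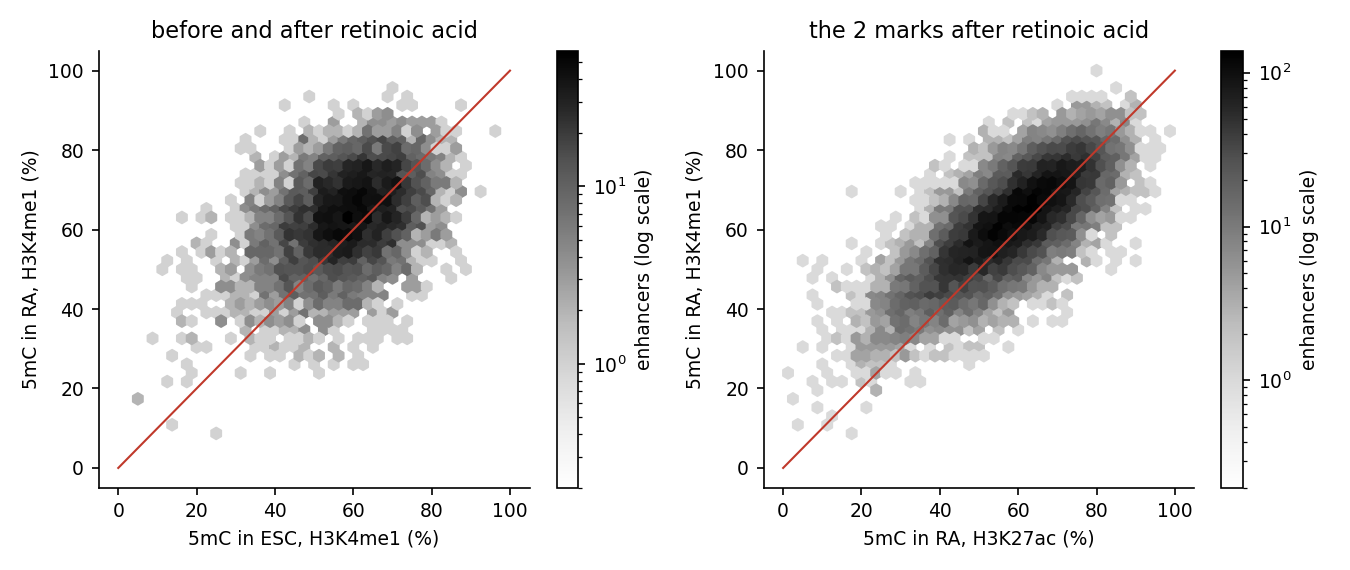
Each hexagon counts de novo active enhancers (grey, log scale) by their 5mC (%) in 2 libraries with at least 30 CpG counts in each; the red line marks equal values. Left, H3K4me1 DNA of ESCs against RA cells (5902 enhancers), with a median change of 4.82 points; right, H3K27ac against H3K4me1 DNA of RA cells (13792 enhancers), with a median difference of 3.68 points.

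Methylation was lowest at the centre of the enhancers in RA cells. Within 200 bp of the peak centre, 5mC in RA cells was 55.4% in H3K4me1 DNA (55.3% to 55.5%) and 51.8% in H3K27ac DNA (51.6% to 51.9%), and 1600 to 2000 bp away it was 66.6% and 62.8%, differences of -11.2 and -11.01 points. In ESCs, where no peak was called, these stretches had 56.9% at the centre and 56.4% in the flanks in the H3K4me1 library, and 63.4% and 63.3% in the H3K27ac library. A smaller local dip was present in ESC H3K4me1 DNA, with 59.8% and 59.95% in the bins 1000 bp to either side and 56.3% in the bin at the centre, before 5mC fell again further out. At de novo primed enhancers the centre differed from the flanks by -8.32 points in H3K4me1 DNA and -3.45 points in H3K27ac DNA of RA cells. Single bins of 200 bp with at least 30 counts were also read, wherever they lay in the enhancer. Of 13052 enhancers with such a bin in the RA H3K4me1 library, 1904 (14.6%) held a bin under 20% 5mC, against 6.78% of de novo primed enhancers, 27.1% of primed ESC enhancers that were acetylated and 53.2% of enhancers active in both states. In the H3K27ac library it was 732 of 2871 (25.5%, interval 23.9% to 27.1%), against 50.0% and 78.1% of the latter sets. Only 25 de novo primed enhancers had such a bin there, 6 of them under 20% (24%, interval 9.36% to 45.1%). These shares per enhancer depend on how many bins it has with enough counts. Of single bins in the RA H3K4me1 library, 6.09% of 42338 were under 20% 5mC. In the other sets, in the order above, it was 5.10%, 10.3% and 19.6%. In the RA H3K27ac library it was 17.5% of 6438 bins, against 26.9% (of only 26 bins), 37.2% and 59.9%.

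**Figure D3:**
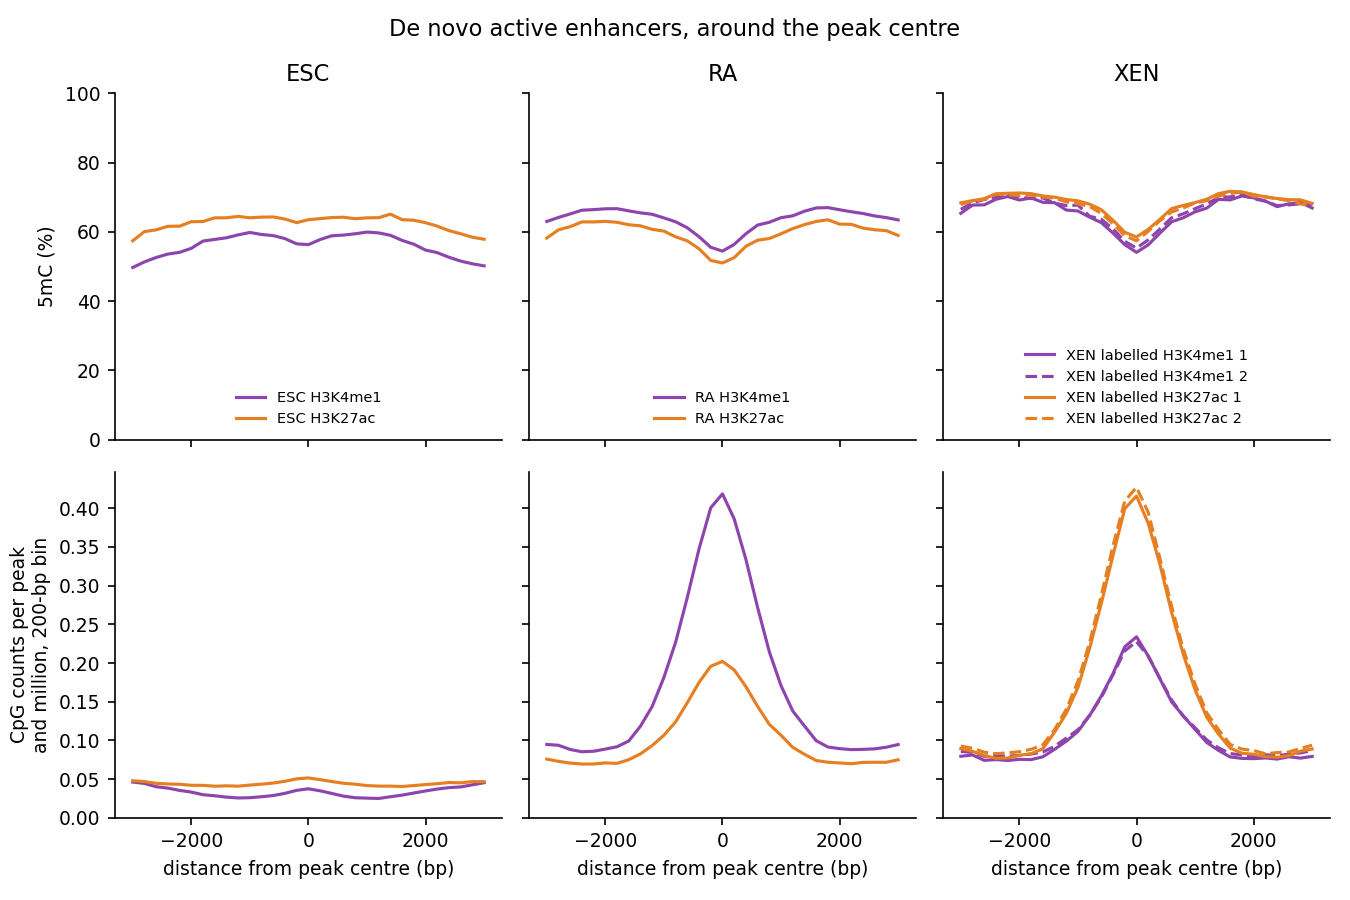
5mC (%, upper row) and CpG counts per enhancer scaled to 1000000 library counts (lower row) in 200-bp bins by distance from the peak centre (bp), for de novo active enhancers in ESC, RA and XEN libraries; purple is H3K4me1 and orange H3K27ac, and in XEN cells colours follow the labels and dashed lines are the second replicate. In RA and XEN libraries the centre differs from the flanks at 1600 to 2000 bp by -11.01 to -14.0 points; ESC H3K4me1 DNA has a smaller local dip, from 59.8% and 59.95% at 1000 bp to 56.3%.

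Enhancers with stronger peaks were less methylated in H3K27ac DNA. In the highest quartile by H3K27ac score, pooled 5mC in that library was 53.2%, and in the other quartiles it was between 59.3% and 60.2%. By H3K4me1 score it fell from 64.9% in the lowest quartile to 52.1% in the highest, and in H3K4me1 DNA from 68.0% to 58.2%. In ESCs the same quartiles by H3K4me1 score ran only from 59.3% to 57.6% in H3K4me1 DNA. Stronger peaks were also longer (median 4110 bp in the highest quartile against 1268 bp in the lowest), and the part of length in this was not tested. The 636 enhancers on chromosome X, of which these male cells hold a single copy, had lower 5mC than those on the autosomes in all 8 libraries. It was 51.6% against 58.5% in ESC H3K4me1 DNA, 56.3% against 60.4% in RA H3K4me1 DNA and 47.5% against 56.2% in RA H3K27ac DNA, and the closest values were 62.7% and 64.8%, in the first XEN library labelled H3K27ac.

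**Figure D4:**
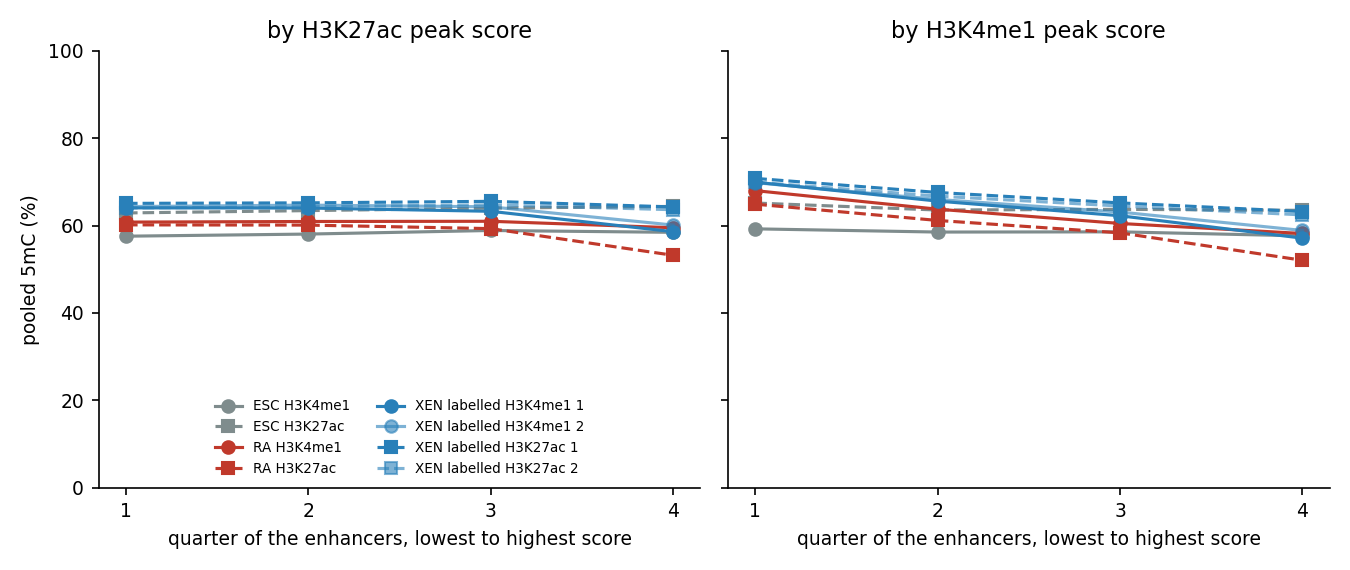
Pooled 5mC (%) of de novo active enhancers in quartiles from the lowest to the highest RA peak score, by H3K27ac score (left) and H3K4me1 score (right), in 8 libraries; circles are H3K4me1 and squares H3K27ac, with XEN libraries by their labels. RA H3K27ac DNA falls to 53.2% in the highest quartile by H3K27ac score and from 64.9% to 52.1% over the quartiles by H3K4me1 score, while ESC H3K4me1 DNA stays between 57.6% and 59.3%.

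Both marks of RA cells were then compared at the same enhancer. The study made this comparison within single bins of 200 bp, to look for cells in different chromatin states. Here counts were summed over whole enhancers, so the 2 libraries can weigh different parts of an enhancer. The part of position in the differences was not tested. Fisher's exact test (two-sided) with Benjamini-Hochberg adjustment over all 81316 H3K4me1 peaks with at least 30 counts in both libraries compares these 2 libraries, not the marks in general. Among 13792 de novo active enhancers tested, 5mC was higher in H3K4me1 DNA at 1207 (8.75%), and over all peaks tested 30.2% were called in that direction. It was higher in H3K27ac DNA at 93 (0.674%), against 0.767% of all peaks. The median difference was 3.68 points, against 6.36 points over all peaks tested. Depth was lower at these enhancers, with medians of 199 and 60 counts in the H3K4me1 and H3K27ac libraries against 242 and 88 over all peaks tested, and its part in the smaller share was not tested. Replicates in XEN cells differed by more than counting error, with squared differences 1.84 and 1.54 times the binomial variance over all peaks. When the test statistic was divided by the larger ratio, an alternative chosen after seeing the data, 483 and 14 enhancers were called (3.50% and 0.102%), against 23.9% and 0.0959% of all peaks. Among differences over 20 points 321 and 60 were called (2.33% and 0.435%), against 14.2% and 0.411% of all peaks.

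Of those 2287 enhancers, 584 (25.5%) were called with higher 5mC in H3K4me1 DNA and 9 (0.394%) with higher 5mC in H3K27ac DNA, against 58.9% and 0.441% of the 35592 H3K4me1 peaks that meet the same minimums. Among those called, the 3 largest differences with higher 5mC in H3K4me1 DNA were at enhancers where H3K27ac DNA was under 20% 5mC. On chromosome 10, from 120336092 to 120337604, 5mC was 69.6% in H3K4me1 DNA (194 counts, 62.6% to 76.0%) and 17.3% in H3K27ac DNA (133 counts, 11.3% to 24.8%), a difference of 52.3 points (adjusted p = 3.2e-20, Fisher's exact test). On chromosome X, from 130430884 to 130432606, it was 52.4% (187 counts) and 5.75% (174 counts), with an adjusted p of 6.5e-23. The third was the chromosome X enhancer from 165230779 named above, with a difference of 41.5 points (adjusted p = 3.3e-20). Their H3K27ac DNA was low in ESCs too, at 4.55%, 5.26% and 8.33%, though over only 22, 38 and 24 counts. H3K27ac peaks of RA cells covered only 850 of 1513 bp, 481 of 1723 bp and 856 of 2435 bp of these enhancers. Whether both libraries read the same stretch was not tested. In the other direction the largest of the 9 differences was -17.5 points, on chromosome 2 from 92456969 to 92458743, with 54.2% in H3K4me1 DNA (288 counts) and 71.7% in H3K27ac DNA (113 counts, adjusted p = 0.0061). The next were -13.7 points on chromosome 3 from 27356544 to 27358053 (70.8% and 84.5%, adjusted p = 0.048) and -13.5 points on chromosome 13 from 30236176 to 30239739 (67.7% and 81.2%, adjusted p = 0.016), also by Fisher's exact test.

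Of the 2287, the enhancers with the most H3K27ac counts per kb were not unmethylated. On chromosome 6, from 136241660 to 136244318, 322 H3K27ac counts per kb came with 45.0% 5mC in H3K27ac DNA (857 counts) and 59.6% in H3K4me1 DNA (912 counts). The next, on chromosome 3 from 145864712 to 145872809, was the least methylated of the 3, at 29.1% (1894 counts) and 40.1% (1885 counts). The third, on chromosome 19 from 38205209 to 38211312, stood at 49.5% and 58.5%. In all 3 the H3K4me1 DNA was the more methylated, with adjusted p-values of 5.4e-09, 9.1e-12 and 1.9e-06 (Fisher's exact test).

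XEN cells took no part in the choice. No XEN peak list was used, so the marks there are described by count levels over all of these enhancers together. The scaled level, in CpG counts per kb, was 0.888 ± 0.00274 in the libraries labelled H3K4me1 and 1.56 ± 0.0324 in those labelled H3K27ac (mean ± SD, n = 2). Scaled instead to the counts in H3K4me1 peaks of RA cells, it was 1.43 and 1.48 in the former and 1.77 and 1.87 in the latter, a smaller gap between labels. On the scale of library totals, de novo primed enhancers had 0.277 ± 0.0282 and 0.620 ± 0.0653, so in each of the 4 libraries the de novo active ones were higher, by 2.38 to 3.46 times. Primed ESC enhancers that were acetylated in RA cells had 1.34 ± 0.0130 and 2.55 ± 0.0734. Counts were concentrated at the peak centre, 2.65 to 2.88 times those of the flanks in libraries labelled H3K4me1 and 4.57 to 4.70 times in those labelled H3K27ac. No count was listed in any XEN library for 325 enhancers (1.59%). Bins with fewer than 4 counts are left out of the XEN files, so low levels are understated there. The XEN labels carry PE while the methods describe single-ended alignment, so whether overlapping mates were counted more than once, which would lower the number of molecules behind 30 counts, is not known.

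The enhancers were methylated in XEN cells as well. Pooled 5mC was 60.7% and 62.0% in the libraries labelled H3K4me1 and 64.8% and 64.0% in those labelled H3K27ac, and none of the 5187 enhancers with at least 30 counts in all 4 was under 20% in all 4. All 4 libraries dipped at the centre, with differences from the flanks of -11.4 to -14.0 points. The difference between labels was -3.03 points (61.4% ± 0.919 and 64.4% ± 0.522, SD, n = 2), and the groups did not overlap, but with 2 libraries against 2 the exact permutation test cannot go below the p of 0.333 that it gave (two-sided). It was -18.6 points at enhancers active in both states, -4.49 at primed ESC enhancers that were acetylated and 0.313 at de novo primed ones.

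At single enhancers edgeR's quasi-likelihood test, over 41301 peaks with at least 30 counts in all 4 XEN libraries, found 526 of 5187 de novo active enhancers (10.1%) with higher 5mC in the libraries labelled H3K27ac, against 34.8% of all peaks tested. It found 23 (0.443%) with higher 5mC in those labelled H3K4me1, against 0.574% of all peaks. The median log2 odds ratio, H3K4me1-labelled over H3K27ac-labelled, was -0.27 at these enhancers and -0.44 over all peaks. Fisher's exact test on summed replicates, which ignores their spread, called 972 (18.7%) and 76 (1.47%), against 42.2% and 1.85% of all peaks. The count of 526 became 162 (3.12%) without the first library labelled H3K27ac and 174 (3.35%) without the second, when 26.9% and 26.3% of all peaks were called. Such a fit has 1 library in one arm and takes its whole spread from the pair with the other label, and the common dispersion was then 0.0138, against 0.00507 with all 4. In the other direction, 23 became 42 (0.810%, against 0.993% of all peaks) without the first library labelled H3K4me1 and 35 (0.675%, against 0.874%) without the second. It became 8 (0.154%) without either one of those labelled H3K27ac, against 0.172% and 0.211% of all peaks.

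Among the enhancers called in XEN cells, the largest difference was on chromosome X, from 11669018 to 11671938. The libraries labelled H3K4me1 had 3.13% (32 counts) and 5.41% (37 counts), and those labelled H3K27ac had 60.4% (96 counts) and 62.2% (127 counts), with an adjusted p of 7.8e-07 (edgeR). In RA cells this enhancer had 47.0% in H3K4me1 DNA and 12.3% in H3K27ac DNA, and H3K27ac peaks covered 660 of its 2921 bp. Next came the chromosome 10 enhancer from 120336092, with 2.04% and 17.9% against 47.2% and 60% (adjusted p = 0.00013), and one on chromosome 6 from 141702420 to 141704182, with 22.0% and 15.7% against 52.9% and 59.6% (adjusted p = 0.00015). At all 3, RA H3K27ac DNA was less methylated than RA H3K4me1 DNA.

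The opposite was found on chromosome 16, from 50232019 to 50239640, a 7622-bp enhancer with 70.5% and 73.9% in the libraries labelled H3K4me1 and 39.9% and 46.5% in those labelled H3K27ac (adjusted p = 1.4e-05). Its RA values were alike, 61.7% in H3K4me1 DNA and 57.6% in H3K27ac DNA (adjusted p = 0.37, Fisher's exact test). On chromosome 17, from 86873947 to 86878147, the XEN values were 76.8% and 70.8% against 45.5% and 51.6% (adjusted p = 0.002), and on chromosome 12, from 25595275 to 25599712, they were 83.8% and 66.7% against 43.1% and 56.3% (adjusted p = 0.022).

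Among the 5187 enhancers tested in XEN cells, those with the most counts per kb in the libraries labelled H3K27ac were heavily methylated. On chromosome 9, from 122075832 to 122078878, the level was 16.3 and 13.7 scaled counts per kb with 64.7% and 68.5% 5mC. The XEN libraries labelled H3K4me1 had 63.4% and 66.5% there. In ESCs it stood at 41.9% in H3K4me1 DNA and 44.6% in H3K27ac DNA, and in RA cells at 55.8% and 54.4%. On chromosome 6, from 120975049 to 120982447, 5mC lay between 67.5% and 76.4% in all 8 libraries, in ESCs as in both differentiated states. The chromosome 19 enhancer from 38205209 was the third, at 12.5 and 10.6 scaled counts per kb with 62.0% and 61.1%.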

How the data were processed

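ChIP-BS-seq libraries of H3K4me1 and H3K27ac from ESCs, RA cells and XEN cells were used. Per the labels and the study's methods, the authors aligned reads to mm9 with Bismark and Bowtie, dropped reads with mixed CpG states, and deposited, for each bin of 200 bp, raw counts of CpGs that were methylated or not, without normalization. Whether an ESC or RA file pools repeats was not established. Mitochondrial DNA, which is almost free of 5mC, showed which column was methylated, and its place differs in XEN files. The deposited peak lists were called by the authors with HOMER and carry a score and the other column used, the peak's length. Coordinates are mm9, counted from 1.

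Counts of bins that overlap a peak were summed, and 5mC is methylated over all counts, with at least 30 counts per peak and exact (Clopper-Pearson) 95% intervals. Levels are CpG counts per kb scaled to 1000000 counts in the library. RA marks were compared with Fisher's exact test, XEN marks with edgeR 4.0.16 (R 4.3.3) with a term per library, and pooled XEN values with an exact permutation test. Both tests across peaks were run on simulated data. For Fisher's exact test these held counting error only, less spread than the XEN replicates had, so they cannot show the false calls in real data. For edgeR the spread was set from the XEN replicates after a first, larger setting had recovered few changes. Replicate numbers did not pair the XEN libraries (r = -0.0067 between deviations of same-numbered libraries). Members, comparison sets and tests were chosen with earlier results of these data known.

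Named enhancers, from those with at least 100 counts in both RA libraries and 30 in ESC H3K4me1, were the 3 with the largest fall, rise, difference between RA marks in each direction at an adjusted p under 0.05, and most RA H3K27ac counts per kb. For XEN, with at least 30 counts in each library, the rule took the 3 largest differences in each direction at an adjusted p under 0.05 and the 3 with the most counts per kb in libraries labelled H3K27ac. An mm9 genome and annotation were not used here, so no gene, promoter or sequence is given, and the position of the enhancer on chromosome 18 is not reported here. Input, H3K36me and single-cell samples were not analysed here. Alternatives were other count minimums, bins, overlaps and peak distances, a replicate block, leaving out each XEN library, Fisher's exact test on summed XEN replicates and the marks of the file names. The software was matplotlib 3.10.9 for figures, with numba 0.67.0, pandas 2.3.3, scipy 1.17.1 and numpy 2.4.6 under Python 3.11.15.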

Additional observations from a re-analysis of the deposited data

Results flagged for a closer look

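The sign of the difference between marks was not the same in the 3 cell states. Pooled over the de novo active enhancers, H3K4me1 DNA minus H3K27ac DNA was -5.51 percentage points in ESCs, where no peak was called, and 4.25 points in RA cells. In XEN cells, by the labels, it was -4.05 points between the first replicates and -2.01 between the second, so every XEN pair had the opposite sign to RA cells. Under the file names the XEN sign would be that of RA cells. The difference between cell states was not tested.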

How the results depend on the processing

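Of 99 recomputed values, 45 stayed within the replicate spread, the counting interval or 1.5 times the count, 51 moved and 3 reversed, and the cause of these moves was not tested except where fewer enhancers or counts enter by construction. The reversals came from taking the XEN marks from the file names, which exchanges 526 and 23 and makes the pooled difference 3.03 points. Requiring scores in the upper 50% of both lists left 7872 enhancers.

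Median 5mC kept within a few points except with only bins of at least 30 counts, which gave 52.9% in ESC H3K4me1, 58.8% in RA H3K4me1, 48.1% in RA H3K27ac, 50% and 52.9% in the XEN libraries labelled H3K4me1, 63.9% and 63.1% in those labelled H3K27ac, and a change of 7.27 points from ESCs to RA cells. With at least 20 counts RA H3K4me1 was 62.6%. With at least 60, ESC H3K4me1 was 58.9%, RA H3K4me1 62%, RA H3K27ac 58.2%, the change 5.12 points and the first XEN library labelled H3K4me1 61.5%. With bins wholly inside the peak the values were 58.8%, 61.996%, 58.8% and, in the first XEN library labelled H3K27ac, 65%. Without enhancers within 1 kb of an ESC peak they were 58.7%, 61.9% and 58.95%, and 64.9% and 64.3% in the XEN libraries labelled H3K27ac. With H3K27ac over at least 50% of the peak they were 59.4% in ESC H3K4me1 and 62.8% in RA H3K4me1, and the change was 4.56 points. With only bins of at least 4 counts, as in the XEN files and chosen after seeing the data, they were 58.3%, 62.4% and 59.4%, and the change was 5.81 points.

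Between RA marks, 1207 and 93 enhancers became 321 and 60 with a difference over 20 points (14.2% and 0.411% of all peaks) and 483 and 14 with the divided statistic (23.9% and 0.0959% of all peaks), chosen after seeing the data, and 93 became 56 with at least 60 counts (0.804%, against 0.794% of all peaks). In XEN cells 23 became 8 with at least 60 counts (0.349%, against 0.603% of all peaks), and Fisher's exact test on summed replicates called 76 and 972 (1.85% and 42.2% of all peaks). Leaving out 1 XEN library gave 8 to 42 and 162 to 571 (3.12% to 11.01%, when 26.3% to 34.5% of all peaks were called), and a pooled difference of -3.68 to -2.38. With the replicate number as a block, which the libraries do not bear out as a pairing (r = -0.0067), 18 and 452 were called (0.347% and 8.71%, against 0.467% and 33.5% of all peaks) and the pooled difference was -3.03. XEN levels scaled to the counts in H3K4me1 peaks of RA cells were 1.43 and 1.48 for libraries labelled H3K4me1 and 1.77 and 1.87 for those labelled H3K27ac, and without enhancers near ESC peaks 0.870 and 0.867 for those labelled H3K4me1. Depth limits the values per enhancer, since of 20451 only 5908 reached 30 counts in ESC H3K4me1, 4249 in ESC H3K27ac and 5824 in the first XEN library labelled H3K4me1.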
